A study of Homo sapiens with 18 samples.

Results

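The MDM2 inhibitor RG7388 was given to human IMR90 fibroblasts in 2 states, dividing or arrested after ionizing radiation. The question here was which genes answered RG7388 differently in irradiated cells than in proliferating cells. For each gene the response in each state is the log2 fold change between RG7388 and its vehicle, DMSO, and the response difference is the log2 fold change in irradiated cells minus that in proliferating cells. A negative response difference therefore means that RG7388 lowered the transcript more, or raised it less, in irradiated cells. The comparison rests on 12 of the 18 poly(A) RNA-seq libraries of the series, 3 in each of 4 groups: proliferating cells with DMSO (Prolif_DMSO), proliferating cells with RG7388 (Prolif_RG7388), irradiated cells with DMSO (IR_DMSO) and irradiated cells with RG7388 (IR_RG7388).

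IMR90 is a wild-type strain of primary human lung fibroblasts, and all 4 groups share that 1 strain. The irradiated cultures received RG7388 or DMSO from day 4 to day 11 after irradiation, a treatment of 7 days, and were collected on day 11. RG7388 was used at a nanomolar concentration, per the study's methods. The labels give no treatment time for the proliferating cells, so state and treatment schedule cannot be told apart. They also do not say whether replicate libraries came from separate cultures or irradiations, and the p-values below measure only the spread between these libraries. In bulk RNA, fewer cells expressing a transcript and less transcript per cell cannot be told apart.

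p53 is a transcription factor that cells stabilize after DNA damage. MDM2, itself a p53 target, is the ubiquitin ligase that keeps p53 low, and RG7388 is a small molecule that occupies the p53-binding pocket of MDM2 and so frees p53. Among the known p53 targets are inhibitors of the cell cycle, death receptors and genes of DNA repair. Irradiated fibroblasts that stop dividing for good, called senescent, also secrete a mixture of cytokines, chemokines, proteases and growth factors, the senescence-associated secretory phenotype (SASP), much of which is driven by the transcription factor NF-kB. Many senescent cells further transcribe interferon-stimulated genes, which answer type I interferon.

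Library totals ranged from 24279641 to 66647700 counted reads over the 12 libraries. Replicate 1 of IR_DMSO stood apart from the other IR_DMSO libraries, with a chi-square per degree of freedom of 100.3 and 98.12 against each of them, where all other pairs within a group lay between 3.77 and 18.46. It stayed in the fit, and counts are given without it, and without a library of a group outside this comparison that also stood apart (replicate 3 of Prolif_HDM201) where they bear most on a result. Fibroblast markers were high in every group, with a summed level over 13 markers from 17490 CPM (read counts scaled to a common library size) in IR_DMSO to 57970 CPM in Prolif_RG7388. Leukocyte markers summed to at most 4.85 CPM, and the 12 epithelial markers, of which 5 exceeded 1 CPM on average, summed to 160.1 to 177.1 CPM in IR_DMSO and 368.3 to 428.2 CPM in IR_RG7388.

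Of 18151 genes tested, 1356 (7.47%) had a response difference past an adjusted p of 0.05 in edgeR's quasi-likelihood test with Benjamini-Hochberg adjustment. In 957 of them (5.27% of genes tested) the response was lower in irradiated cells, and in 399 (2.2%) it was higher. At a response difference of at least 2-fold there were 709 calls (3.91%), 604 lower (3.33%) and 105 higher (0.578%). The median response difference over all genes tested was -0.00188 on the log2 scale, with a median size of 0.30 and a median SE of 0.253. The lean toward lower responses depended on the scaling in degree. With library totals in place of TMM factors, which moved the median of all genes to -0.135, 15.1% of the calls were higher, against 29.4% here, and in limma fits to log2 FPKM 12.1% to 14.1% were higher.

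RG7388 itself passed the test for 4134 genes (22.8%) in irradiated cells, 1983 up (10.9%) and 2151 down (11.9%), and for 279 genes (1.54%) in proliferating cells, 217 up (1.2%) and 62 down (0.342%). Without both libraries that stood apart there were 2204 response differences and 4950 and 1436 calls in irradiated and proliferating cells. The count in proliferating cells was 94 to 401 without 1 library at a time, 829 from the 12 libraries alone and 557 in DESeq2. Most response differences belonged to genes called in irradiated cells only, a share that rests on these counts. Of the 957 lower genes, 828 (86.5%) fell with RG7388 in irradiated cells and passed no test in proliferating cells, 43 (4.49%) rose in proliferating cells only, 29 (3.03%) fell in irradiated and rose in proliferating cells, 10 were called in both states in 1 direction, and 47 passed in neither state alone. Of the 399 higher genes, 370 (92.7%) rose in irradiated cells only, 7 fell in proliferating cells only, 3 rose in irradiated and fell in proliferating cells, 6 rose in both and 13 passed in neither. All 32 genes that moved in opposite directions in the 2 states were also called for the response difference, whereas of 135 genes that moved in 1 direction in both states only 16 were. Opposite responses add up in the difference and like ones cancel, so this contrast follows largely from how the difference is formed.

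**Figure D1:**
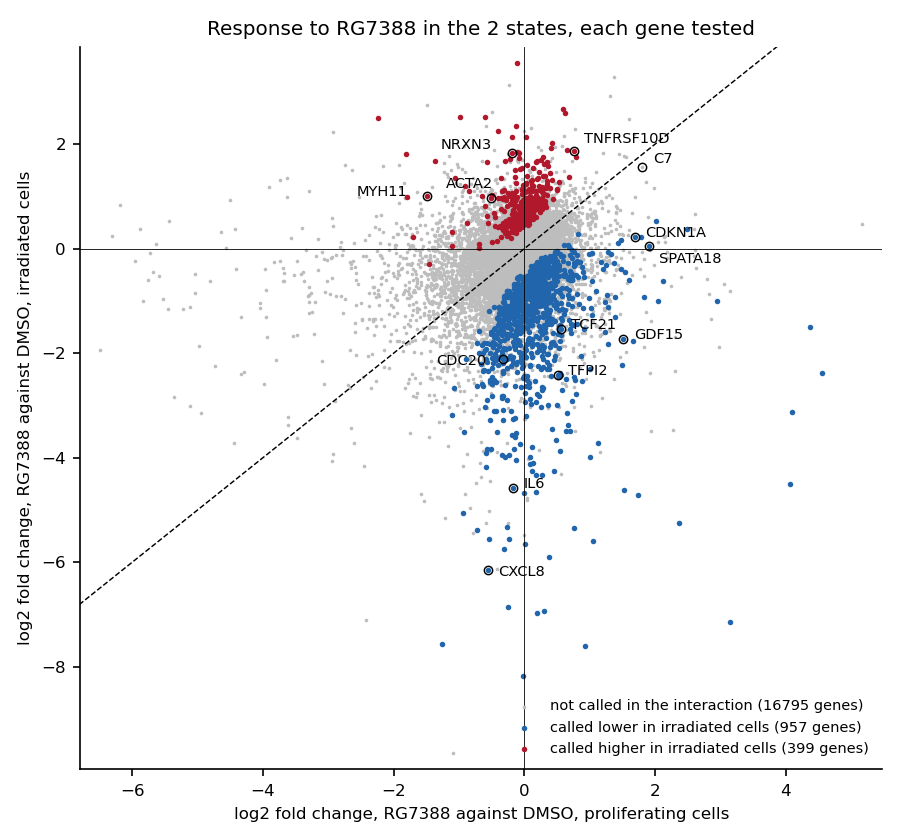
Response to RG7388 (log2 fold change against DMSO) in proliferating cells on the horizontal axis and in irradiated cells on the vertical axis, 1 point per gene tested, with the 957 genes called lower and the 399 called higher in irradiated cells in color. Called genes spread along the vertical axis and little along the horizontal one, with 4134 genes called in irradiated and 279 in proliferating cells.

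**Figure D2:**
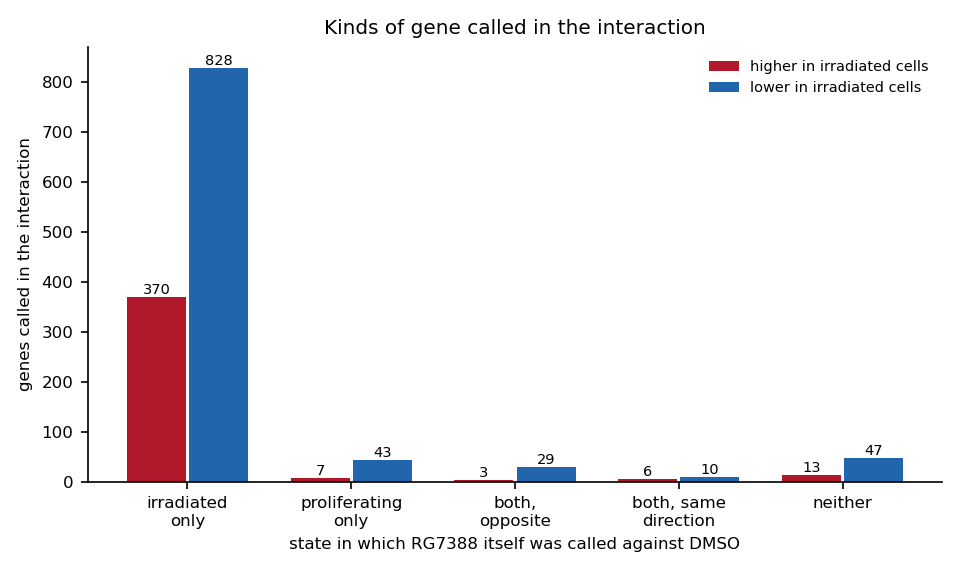
Number of genes called for the response difference (vertical axis), split by where RG7388 itself passed the test (horizontal axis), for genes lower and genes higher in irradiated cells. The bars for irradiated cells only hold 828 of 957 and 370 of 399 genes.

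The levels of the called genes are given as a description. Both control groups are terms of the response difference, so levels before treatment partly follow from the calling itself. The 957 lower genes had a median of 10.5 CPM in Prolif_DMSO and 16.7 CPM in IR_DMSO, and 152 of them lay under 1 CPM in Prolif_DMSO. With RG7388 their median was 11.9 CPM in proliferating and 6.92 CPM in irradiated cells. The 399 higher genes had medians of 67.8 CPM in Prolif_DMSO and 37.5 CPM in IR_DMSO, and of 71.5 and 63.8 CPM with RG7388. For 96 of the lower genes and 1 of the higher genes the sign of the response difference was the other one when the responses were subtracted in CPM.

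Stretches of 100 bases from the promoters of genes that carried the largest group responses are printed first, from RefSeq, build GRCh38.p14. The first 3 belong to NF-kB target cytokines and hold, in capitals, the NF-kB site form GGNNTTTCC (searched on both strands), which 6.26% of 27305 promoters of the same 300-base window hold. It was in 9 of the 18 NF-kB cytokine and chemokine promoters that had a window (50%).
CXCL8, chr4:73740432-73740531, plus strand: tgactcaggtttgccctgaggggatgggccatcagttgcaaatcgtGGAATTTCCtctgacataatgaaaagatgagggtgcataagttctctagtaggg
CXCL1, chr4:73869282-73869381, plus strand: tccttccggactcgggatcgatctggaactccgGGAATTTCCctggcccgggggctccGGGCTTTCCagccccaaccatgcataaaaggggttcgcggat
IL6, chr7:22727082-22727181, plus strand: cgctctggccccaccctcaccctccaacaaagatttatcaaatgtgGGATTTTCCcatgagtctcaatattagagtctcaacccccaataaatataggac
The next stretches come from interferon-stimulated genes, with the response element form GAAANNGAAA in capitals. It was in 20 of the 30 interferon-stimulated gene promoters that had a window (66.7%), against 3.65% of all promoters.
CXCL10, chr4:76023648-76023747, minus strand: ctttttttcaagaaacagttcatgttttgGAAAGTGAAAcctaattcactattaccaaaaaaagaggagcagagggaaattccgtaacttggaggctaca
EPSTI1, chr13:42992242-42992341, minus strand: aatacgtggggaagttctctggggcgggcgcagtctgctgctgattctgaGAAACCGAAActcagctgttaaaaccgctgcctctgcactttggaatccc
The last belong to mitotic genes and show in capitals the core of the cell cycle homology region, TTTGAA, which 29 of 41 mitotic gene promoters (70.7%) and 15.4% of all promoters held.
CDC20, chr1:43358856-43358955, plus strand: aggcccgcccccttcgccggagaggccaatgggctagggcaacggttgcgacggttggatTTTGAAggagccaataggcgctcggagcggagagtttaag
KIF4A, chrX:70290004-70290103, plus strand: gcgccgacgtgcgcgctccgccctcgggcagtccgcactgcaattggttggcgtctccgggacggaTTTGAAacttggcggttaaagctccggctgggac
A match describes letters in the window and does not show a bound site.

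The p53 targets are the genes that MDM2 inhibition is known to induce, and their response differed between the states for 26 of 68 tested members (38.2%, against 7.47% of all genes), 25 lower and 1 higher in irradiated cells. In proliferating cells 27 of them rose with RG7388 and none fell (1.2% and 0.342% of all genes), with a list median of 0.38. In irradiated cells 7 of the 68 rose and 18 fell (10.9% and 11.9% of all genes), with a list median of -0.05. The median response difference was -0.47. Of the 25 lower targets, 13 rose in proliferating cells only, 8 fell in irradiated cells only and 4 moved in opposite directions. Leaving out 1 library at a time gave 21 to 24 lower members, and leaving out both libraries that stood apart gave 35.

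Arrest genes come first. CDKN1A (chromosome 6, 36676460 to 36687337, hg38), which encodes the cyclin-dependent kinase inhibitor p21, was at 222, 246 and 225 CPM in Prolif_DMSO and 733, 797 and 715 CPM in Prolif_RG7388. It was at 1708, 1868 and 1878 CPM in IR_DMSO and 2077, 2089 and 2165 CPM in IR_RG7388. Irradiated libraries were all far above proliferating ones, the groups did not overlap, and the response was 1.69 in proliferating cells and 0.21 (adjusted p = 0.158) in irradiated cells, a response difference of -1.48 ± 0.151 (SE, adjusted p = 4.26e-07). BTG2, an antiproliferative gene, moved in opposite directions: its levels were 3.32, 3.58 and 3.85 CPM in Prolif_DMSO, 9.51, 11.5 and 10.1 CPM in Prolif_RG7388, 42.8, 43.0 and 40.5 CPM in IR_DMSO and 31.3, 31.8 and 30.2 CPM in IR_RG7388. Every treated proliferating library lay above its controls and every treated irradiated library below its own, with a response difference of -1.98 ± 0.167 (SE, adjusted p = 2.47e-08). PLK2, a stress-induced kinase, and GADD45A, a growth arrest gene, fell in irradiated cells only, by 2.49-fold and 1.44-fold, with response differences of -1.43 and -0.85.

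Among feedback genes, MDM2, the target of the compound, was at 34.7, 33.7 and 44.8 CPM in Prolif_DMSO and 73.8, 53.2 and 65.1 CPM in Prolif_RG7388. Its levels were 169, 169 and 172 CPM in IR_DMSO and 172, 164 and 154 CPM in IR_RG7388, so that the proliferating groups separated and the irradiated ones overlapped. The response difference of -0.82 ± 0.248 (SE, adjusted p = 0.0499) lay at the threshold, with a 95% interval of -1.34 to -0.30, and was kept only without Prolif_DMSO replicate 3 or without Prolif_RG7388 replicate 2 when 1 library was left out. The 10 other such fits gave adjusted p from 0.0574 to 0.123. TP53INP1, a p53 cofactor, rose in proliferating cells (0.54) and fell in irradiated cells (-0.37), and PPM1D, the phosphatase that dampens the damage response, fell in irradiated cells only (-0.47).

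Death receptor genes split. TNFRSF10C, which encodes a decoy receptor for the ligand TRAIL, was at 0.448, 0.302 and 0.492 CPM in Prolif_DMSO and 2.84, 2.21 and 2.27 CPM in Prolif_RG7388, a rise of 5.61-fold. It stood at 12.4, 13.6 and 11.9 CPM in IR_DMSO and 17.1, 17.5 and 14.7 CPM in IR_RG7388 (adjusted p = 0.0556), and its response difference was -2.11 ± 0.260 (SE, adjusted p = 5.43e-06). In CPM the gain was larger in irradiated cells, so the sign of the TNFRSF10C difference depends on the scale. All Prolif_DMSO libraries lay under 1 CPM for this gene. The signaling receptor gene TNFRSF10B (DR5) rose in proliferating cells only, with a response difference of -0.77.

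TNFRSF10D, the other decoy receptor of the family, was the 1 target called the other way. It had 189, 211 and 196 CPM in Prolif_DMSO, 319, 361 and 327 CPM in Prolif_RG7388, 165, 175 and 188 CPM in IR_DMSO and 652, 621 and 648 CPM in IR_RG7388. It thus rose in both states, 1.69-fold in proliferating and 3.63-fold in irradiated cells, and the response difference was 1.10 ± 0.146 (SE, adjusted p = 1.51e-05). The proapoptotic gene BBC3 (PUMA) fell in irradiated cells (-0.45) and had a response difference of -0.80 ± 0.218 (SE, adjusted p = 0.0234), a call lost in 6 of the 12 fits that each left out 1 library, among them IR_DMSO replicate 1 (adjusted p = 0.0614). SPATA18, a mitochondrial quality control gene, rose from 3.07, 3.49 and 4.02 CPM to 12.6, 13.1 and 13.8 CPM in proliferating cells. In irradiated cells it lay at 35.3, 41.7 and 39.3 CPM without and 40.6, 40.7 and 38.3 CPM with RG7388, an overlap that left a response difference of -1.87 ± 0.170 (SE, adjusted p = 7.83e-08).

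Repair and secreted targets completed the list. DDB2 and XPC, which recognize ultraviolet lesions, had response differences of -0.70 and -0.49, calls that were lost in 6 and 7 of the 12 fits without 1 library (adjusted p up to 0.0677 and 0.0855). PCNA, the replication clamp, fell in irradiated cells only (-0.50), with a response difference of -0.58. GDF15, a secreted stress cytokine, gave the largest response difference of the targets. Its levels were 10.6, 13.3 and 11.4 CPM in Prolif_DMSO, 33.5, 35.0 and 31.6 CPM in Prolif_RG7388, 406, 314 and 338 CPM in IR_DMSO and 106, 105 and 107 CPM in IR_RG7388. Irradiated controls stood far above every other group, RG7388 raised the transcript 2.86-fold in proliferating cells and lowered it 3.32-fold in irradiated cells, and the response difference was -3.25 ± 0.188 (SE, adjusted p = 5.38e-11). DRAM1, a lysosomal autophagy gene, also went in opposite directions (0.36 and -0.85), and FDXR, a mitochondrial ferredoxin reductase, rose in proliferating cells only (0.90).

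**Figure D3:**
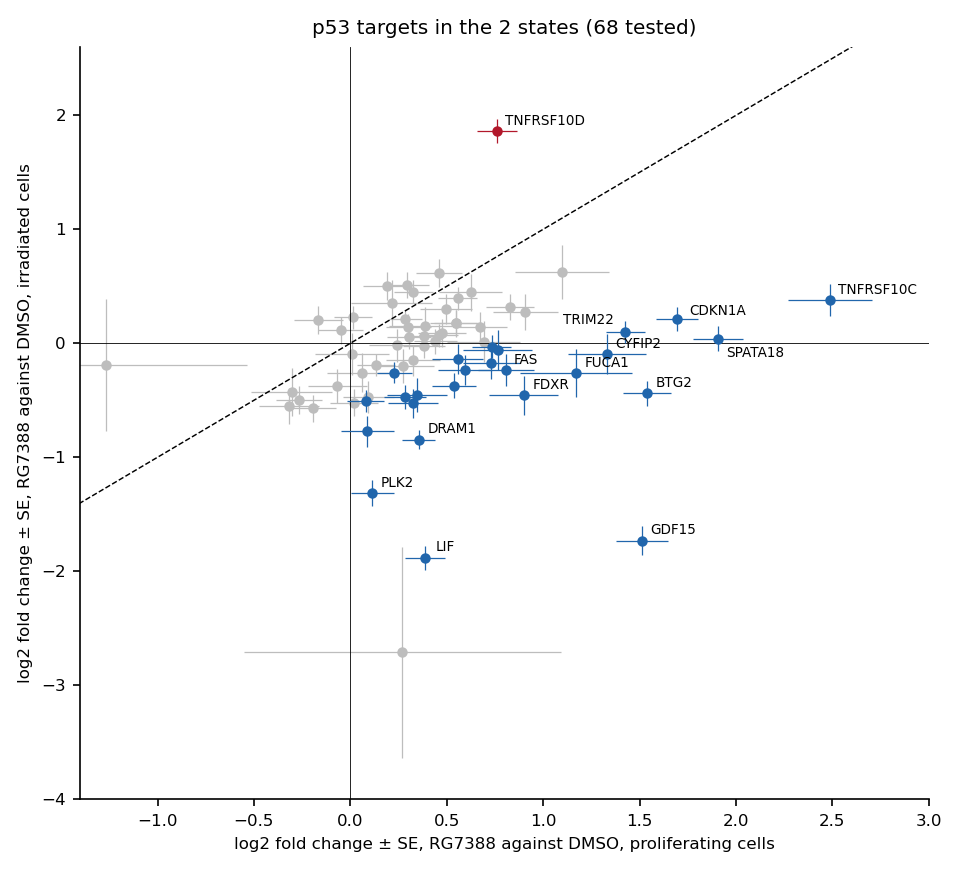
Response of the 68 tested p53 targets to RG7388 in proliferating cells (horizontal axis, log2 fold change) and irradiated cells (vertical axis), each point with its SE in both directions and called members colored. Most points lie to the right of 0 and below the diagonal, and TNFRSF10D lies above it.

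NF-kB target cytokines and chemokines were high in irradiated controls and fell with RG7388 there. Of 25 tested, 20 were lower (80%, against 5.27% of all genes) and none higher, with a median of -3.57. All 20 fell in irradiated cells and none of the 25 passed in proliferating cells (against 1.54% of all genes), where the median response was -0.02. The median change in level was -14.6 CPM in irradiated and 0.02 CPM in proliferating cells. Some members, CXCL1 and CCL20 among them, lay under 1 CPM in proliferating cells and could hardly fall there. The count was 18 to 20 without 1 library at a time. The 6 CXC chemokines, which draw neutrophils and other leukocytes, were all called, with a median of -7.20.

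CXCL8, the neutrophil chemokine interleukin-8, was at 8.69, 7.72 and 8.61 CPM in Prolif_DMSO and 6.72, 4.85 and 5.46 CPM in Prolif_RG7388. It was at 709, 622 and 574 CPM in IR_DMSO and 10.2, 8.01 and 8.61 CPM in IR_RG7388. The IR_DMSO libraries stood apart from all others, and IR_RG7388 overlapped Prolif_DMSO, a fall of 70.8-fold in irradiated cells. The response in proliferating cells was -0.56 (adjusted p = 0.0656) and the response difference -5.58 ± 0.213 (SE, adjusted p = 4.87e-14). CXCL1, of the same family, went from 158, 159.9 and 125 CPM in IR_DMSO to 0.628, 0.217 and 0.570 CPM in IR_RG7388 and lay between 0.303 and 0.312 CPM on average in proliferating cells, giving a response difference of -8.17 ± 0.801 (SE, adjusted p = 1.08e-06).

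IL6, the cytokine of the acute phase response, had 8.52, 10.2 and 11.0 CPM in Prolif_DMSO and 8.93, 8.78 and 8.58 CPM in Prolif_RG7388. It had 112, 159 and 135 CPM in IR_DMSO and 5.53, 5.11 and 6.30 CPM in IR_RG7388. Treated irradiated libraries lay below even the proliferating ones, and the response difference was -4.41 ± 0.215 (SE, adjusted p = 3.15e-12). IL1B and IL1A, which start the interleukin-1 loop that feeds NF-kB, fell 116-fold and 53.8-fold in irradiated cells, with response differences of -6.61 and -5.43. In proliferating cells their mean levels were 2.10 and 0.951 CPM without RG7388 and 1.76 and 0.740 CPM with it.

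LIF, IL11, CCL2 and CSF1 had response differences nearer 0 than the median of the list. LIF, an interleukin-6 family cytokine that is also a p53 target, was at 75.5, 78.7 and 70.8 CPM in Prolif_DMSO and 91.5, 104 and 98.6 CPM in Prolif_RG7388 (adjusted p = 0.0627). In irradiated cells it went from 357, 382 and 379 CPM to 98.9, 105 and 99.3 CPM, so that both treated groups ended with overlapping levels, and its response difference was -2.27 ± 0.148 (SE, adjusted p = 3.16e-10). IL11 had a response difference of -1.34, the monocyte chemokine CCL2 -2.08 and the macrophage growth factor CSF1 -1.05. CCL20 had no reads in the 3 Prolif_DMSO libraries and 2 in Prolif_RG7388, so no response difference is given for it. It had 1110 reads in IR_DMSO and 8 in IR_RG7388, a log2 fold change of -7.25. Interleukin IL32 was the 1 member tested with no call in either state.

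The NF-kB pathway itself was lower for 18 of 38 tested members (47.4%, against 5.27% of all genes), none higher, with a median of -0.57. That count was 12 to 15 without 1 library at a time. The feedback inhibitors, which NF-kB induces and which then restrain it, accounted for 7 of the 18. TNFAIP3 (A20), a ubiquitin-editing enzyme, was at 13.7, 15.2 and 14.7 CPM in Prolif_DMSO, 11.8, 13.1 and 13.0 CPM in Prolif_RG7388, 83.1, 79.2 and 70.3 CPM in IR_DMSO and 7.26, 6.28 and 5.94 CPM in IR_RG7388. Treated irradiated cells were the lowest of the 4 groups, without overlap, and the response difference was -3.38 ± 0.176 (SE, adjusted p = 1.00e-11). NFKBIA, the inhibitor that holds NF-kB in the cytoplasm, had a response difference of -2.58, the ribonuclease gene ZC3H12A -3.24 and the nuclear cofactor NFKBIZ -2.45.

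Subunits and receptors moved less. NFKB1 was -0.74 and NFKB2 -0.58, the latter lost without IR_RG7388 replicate 1 (adjusted p = 0.0613). RELB was -0.68 (adjusted p = 0.0458) and was lost in all 12 fits that left out 1 library, with adjusted p up to 0.143. The kinase adaptor IRAK2 was -2.05 and the receptor IL1R1 -1.05. CEBPD, a transcription factor of the SASP, was -1.72, and CEBPB, another, -1.21 ± 0.418 (SE, adjusted p = 0.107) with a spread in IR_DMSO of 122, 55.4 and 61.1 CPM, where replicate 1 was the high one.

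**Figure D4:**
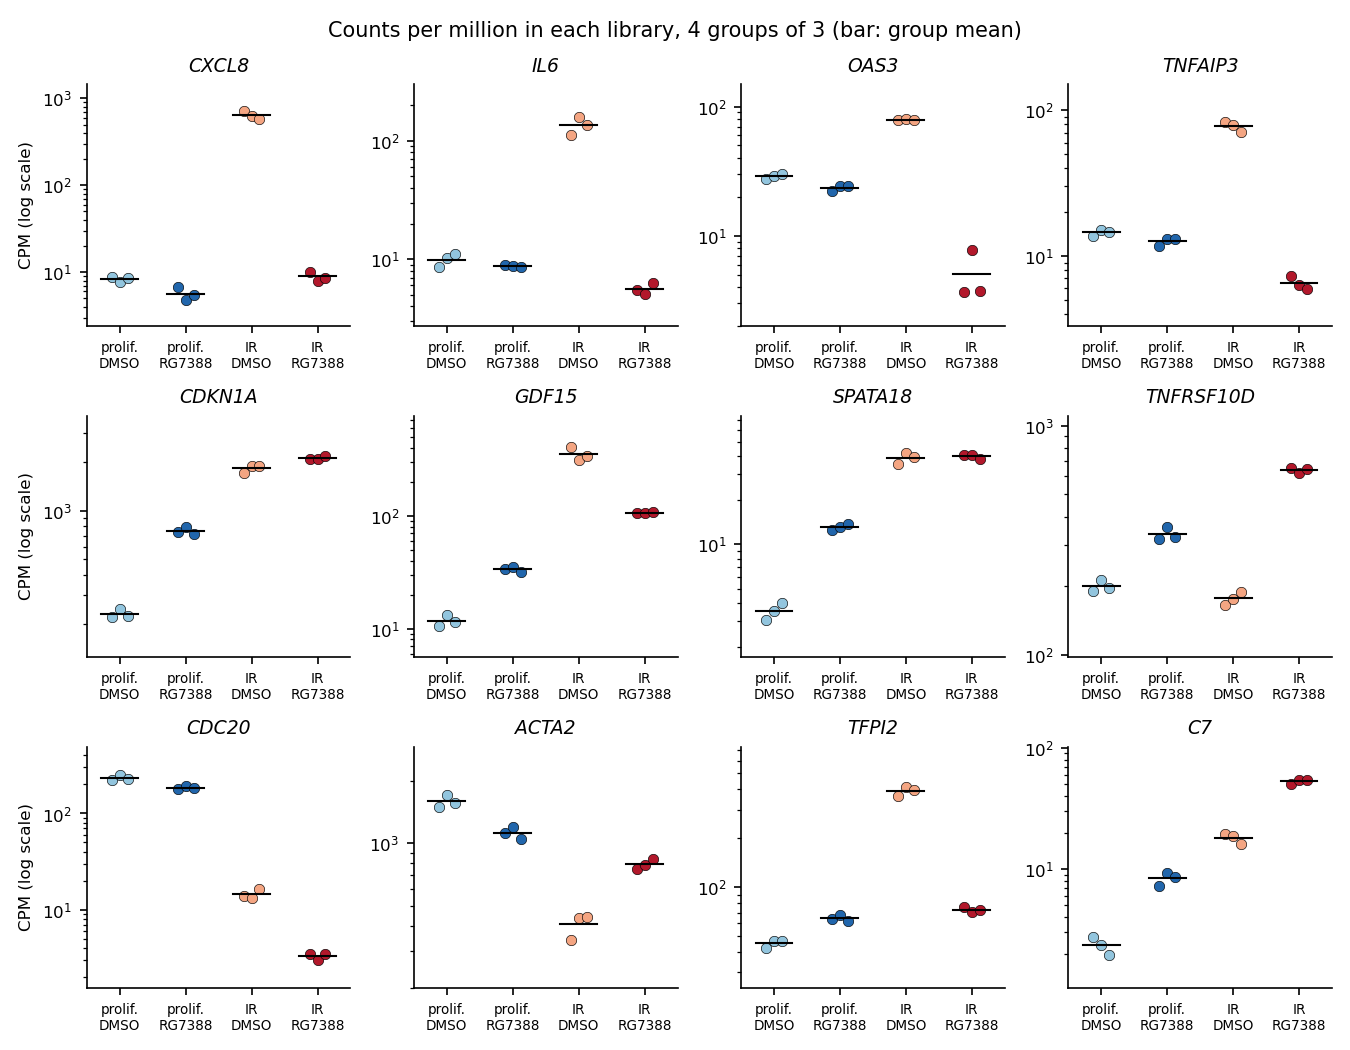
Level of 12 named genes in each of the 12 libraries (CPM, log axis), grouped as Prolif_DMSO, Prolif_RG7388, IR_DMSO and IR_RG7388, with 1 point per library and a bar at the group mean. CXCL8, IL6, OAS3 and TNFAIP3 are high in IR_DMSO only, CDKN1A and SPATA18 rise in proliferating cells and overlap or nearly so in irradiated cells, and ACTA2 moves in opposite directions.

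Interferon-stimulated genes behaved alike. Of 37 tested, 29 (78.4%, against 5.27% of all genes) were lower and none higher, with a median of -3.67. Of the 29, 28 fell in irradiated cells only. Over the whole list, 35 fell in irradiated cells and 1 rose in proliferating cells (11.9% and 1.2% of all genes). Some members, CXCL10 and RSAD2 among them, lay under 1 CPM on average in proliferating cells and could hardly fall there. Without 1 library at a time the count was 23 to 30. The antiviral effector OAS3, which makes the messenger that activates RNase L, had 27.8, 29.3 and 30.3 CPM in Prolif_DMSO, 22.4, 24.3 and 24.2 CPM in Prolif_RG7388, 78.0, 80.0 and 78.4 CPM in IR_DMSO and 3.69, 7.70 and 3.73 CPM in IR_RG7388. RG7388 took irradiated cells below the level of proliferating cells, and the response difference was -3.69 ± 0.272 (SE, adjusted p = 1.20e-08).

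EPSTI1 and IFI35, both interferon-induced, had response differences of -3.08 and -2.94. CXCL10, a ligand of the chemokine receptor CXCR3, was at 40.0, 54.7 and 43.8 CPM in IR_DMSO and 0.934, 0.897 and 1.11 CPM in IR_RG7388. Its group means were 0.449 and 0.380 CPM in proliferating cells, and its response difference was -5.32 ± 0.420 (SE, adjusted p = 9.78e-09). IFIT1, an RNA-binding effector, was at 149, 147 and 137 CPM in IR_DMSO and 2.71, 22.6 and 2.67 CPM in IR_RG7388. Replicate 2 of IR_RG7388 was thus the high one of its group, and the response difference of -4.08 ± 1.09 (SE, adjusted p = 0.0391) was lost in 11 of 12 fits that left out 1 library, with adjusted p up to 0.102, and held only without that replicate. RSAD2 had no reads in Prolif_DMSO, 4 in Prolif_RG7388, 726 in IR_DMSO and 33 in IR_RG7388, a log2 fold change of -4.59 in irradiated cells.

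The exception in kind was TRIM22, which is both interferon-stimulated and a p53 target. It rose from 9.51, 10.2 and 10.5 CPM in Prolif_DMSO to 27.8, 24.6 and 28.6 CPM in Prolif_RG7388. In irradiated cells it was at 81.5, 91.0 and 88.3 CPM without and 90.3, 94.3 and 95 CPM with RG7388 (adjusted p = 0.491). Its response difference, -1.33 ± 0.137 (SE, adjusted p = 4.88e-07), therefore came from proliferating cells, as for CDKN1A.

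Factors that relay the interferon signal were lower for 10 of 21 (47.6%, against 5.27% of all genes), none higher. IRF7 was -2.32 and the RNA sensor IFIH1 -3.91. In the DNA-sensing cGAS-STING list 2 of 10 were lower (20%, against 5.27% of all genes), SAMHD1, a nucleotide hydrolase, at -1.19 among them. Of 19 MHC class I genes tested, 11 (57.9%, against 5.27% of all genes) were lower, with a median of -0.65. Without 1 library at a time 8 to 11 were lower. B2M, the invariant chain, was -0.78, the peptide transporter TAP1 -0.98, and the immunoproteasome subunits PSMB8 and PSMB9 -1.41 and -2.43.

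SASP proteases and growth factors were lower for 24 of 45 (53.3%, against 5.27% of all genes) and higher for 1 (2.22%, against 2.2%), with a median of -0.58. In irradiated cells 24 fell and 9 rose (11.9% and 10.9% of all genes), and in proliferating cells 8 rose and none fell (1.2% and 0.342%). Stromelysin MMP3 was at 13.1, 12.7 and 12.9 CPM in Prolif_DMSO, 10.7, 11.1 and 12.6 CPM in Prolif_RG7388, 71.1, 41.3 and 40.5 CPM in IR_DMSO and 5.71, 5.41 and 4.90 CPM in IR_RG7388. IR_DMSO replicate 1 was the highest, all treated irradiated libraries were below the proliferating ones, and the response difference was -3.08 ± 0.255 (SE, adjusted p = 2.23e-08). Collagenase MMP1 had a response difference of -1.33 and MMP10 -2.64.

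PLAU, the urokinase protease, moved in opposite directions, 0.45 in proliferating and -0.97 in irradiated cells, with a response difference of -1.42 ± 0.145 (SE, adjusted p = 3.96e-07).

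Among growth factors, the EGF receptor ligand AREG was -2.73 and BMP2 -2.02, both falling in irradiated cells only. WNT16, a secreted factor induced by damage, came from the other state: it rose from 2.90, 2.93 and 2.76 CPM to 7.39, 7.59 and 7.34 CPM in proliferating cells, and was at 66.8, 67.2 and 69.1 CPM in IR_DMSO and 57.2, 55.9 and 55.3 CPM in IR_RG7388. The irradiated groups did not overlap but the fall of -0.27 missed the threshold (adjusted p = 0.0713), and the response difference was -1.65 ± 0.166 (SE, adjusted p = 3.72e-07).

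In the prostaglandin pathway 5 of 12 tested genes were lower (41.7%, against 5.27% of all genes) and 1 higher (8.33%, against 2.2%). PTGS2 (COX-2), the inducible enzyme that starts the pathway, went from 63.2, 81.9 and 66.8 CPM in IR_DMSO to 5.82, 4.33 and 5.65 CPM in IR_RG7388, with 4.97 and 4.78 CPM on average in proliferating cells, a response difference of -3.67 ± 0.276 (SE, adjusted p = 6.68e-09). PTGES, the E2 synthase, was -4.15. PTGIS, the prostacyclin synthase, was the higher one: it fell in proliferating cells from 18.8, 18.4 and 21.2 CPM to 7.08, 7.19 and 6.99 CPM, and the irradiated groups, at 6.84, 7.68 and 5.87 CPM and 6.45, 5.79 and 4.43 CPM, overlapped, giving a response difference of 1.17 ± 0.214 (SE, adjusted p = 7.20e-04). Complement genes were lower for 5 of 11 (45.5%, against 5.27% of all genes), with C3, the central component, at -2.58 and the cell surface regulator CD55 at -1.26.

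Cell cycle genes show how far a response difference depends on the scale. Of 48 mitotic genes tested, 33 (68.8%, against 5.27% of all genes) were lower and none higher, with a median of -1.19. RG7388 lowered 47 of them in irradiated cells (median -1.61, against 11.9% of all genes lowered) and 4 in proliferating cells (median -0.40, against 0.342%). Yet on the CPM scale the fall was larger in proliferating cells for all 48, and irradiated controls had little of these transcripts to begin with. CDC20, an activator of the anaphase-promoting complex, was at 220.5, 251 and 228 CPM in Prolif_DMSO and 179.6, 193 and 184 CPM in Prolif_RG7388. It was at 14.0, 13.3 and 16.3 CPM in IR_DMSO and 3.52, 3.03 and 3.47 CPM in IR_RG7388. No groups overlapped, the fold was 4.32 in irradiated and 1.26 in proliferating cells (adjusted p = 0.299), and the response difference was -1.78 ± 0.207 (SE, adjusted p = 2.32e-06).

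BIRC5 (survivin) was -2.06, the kinesin genes KIF20A and KIF4A -2.13 and -1.80, the checkpoint kinase BUB1 -1.68, the kinase AURKB -1.27 and the ubiquitin-conjugating enzyme UBE2C -1.39. In IR_RG7388 their group means lay between 1.82 CPM (AURKB) and 4.47 CPM (BIRC5). MKI67, the proliferation marker Ki-67, was at 18, 35.7 and 33.0 CPM in IR_DMSO and 10.9, 9.56 and 8.12 CPM in IR_RG7388. Its proliferating levels, 526, 447 and 545 CPM without and 463, 210.4 and 421 CPM with RG7388, overlapped, and the response difference of -1.12 ± 0.502 (SE, adjusted p = 0.236) did not pass, except without both libraries that stood apart (adjusted p = 0.0474). CENPE, a kinetochore motor, fell in both states (-1.47 in irradiated and -0.92 in proliferating cells), and its response difference of -0.55 missed the threshold (adjusted p = 0.129). It passed without IR_DMSO replicate 1 (adjusted p = 0.0497) and without both libraries that stood apart (adjusted p = 0.00768), and had the other sign under 2 alternatives.

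DNA replication and E2F target genes were lower for 10 of 46 (21.7%, against 5.27% of all genes), with a median of -0.37. That count was 6 to 9 without 1 library at a time, 18 with library totals alone and 16 without both libraries that stood apart. In CPM, RG7388 lowered the level more, or raised it less, in proliferating cells for 31 of the 46 (9492 of all 18151 genes). Ribonucleotide reductase subunit RRM2 was -1.71, thymidine kinase TK1 -1.29, and the helicase components CDC45 and MCM7 -1.01 and -0.64. LMNB1, the nuclear lamin whose loss marks senescence, was at 141, 144 and 149 CPM in Prolif_DMSO, 97.9, 107 and 109 CPM in Prolif_RG7388, 8.50, 5.47 and 6.52 CPM in IR_DMSO and 2.11, 3.03 and 2.05 CPM in IR_RG7388. All 4 groups were separate, and the response difference was -1.06 ± 0.205 (SE, adjusted p = 0.00121), a call lost in limma fits to log2(FPKM + 1) (adjusted p = 0.0731). In CPM the fall of LMNB1 was larger in proliferating cells, so the sign of its difference depends on the scale. Of 35 homologous recombination and Fanconi genes 4 were lower (11.4%, against 5.27% of all genes), FANCD2 at -1.02 among them, a call lost in the FPKM fits (adjusted p from 0.19 to 0.699). For 28 of these 35 the change in CPM was the lower one in proliferating cells. Of 21 end joining genes none was lower (against 5.27% of all genes) and 1 was higher (4.76%, against 2.2%). The higher one was XRCC4, a cofactor of DNA ligase IV, at 1.27 ± 0.217 (SE, adjusted p = 3.52e-04), having risen 1.92-fold in irradiated cells only.

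Cyclin-dependent kinase inhibitors other than p21 did not share 1 pattern. CDKN2A, the locus of p16 and ARF, fell in both states, from 14.8, 17.6 and 15.6 to 9.47, 10.7 and 8.61 CPM in proliferating cells and from 16.1, 12.7 and 13.4 to 7.89, 6.68 and 8.32 CPM in irradiated cells. The response difference was -0.14 ± 0.207 (SE, adjusted p = 0.781), with a 95% interval of -0.57 to 0.29. CDKN2B (p15) fell in irradiated cells only, with a response difference of -0.87. CDKN2C (p18) was -0.90, a call lost when replicate 1 of IR_DMSO or either replicate 1 or 2 of IR_RG7388 was left out (adjusted p up to 0.0909).

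Contractile genes leaned the other way from the p53 target, inflammatory and mitotic lists. Of 13 tested, 9 (69.2%, against 2.2% of all genes) were higher in irradiated cells and none lower, with a median of 0.98. RG7388 raised 10 of them in irradiated cells and lowered 3 in proliferating cells (10.9% and 0.342% of all genes). Counted together with the TGF-beta response genes, 10 were higher, and 7 to 10 when 1 library was left out.

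MYH11, the smooth muscle myosin heavy chain, gave the largest contractile response difference. It was at 19.8, 18.7 and 18.7 CPM in Prolif_DMSO, 7.57, 6.53 and 6.38 CPM in Prolif_RG7388, 5.19, 4.57 and 5.25 CPM in IR_DMSO and 8.72, 11.1 and 10.5 CPM in IR_RG7388. All treated proliferating libraries lay below and all treated irradiated libraries above their controls, and the response difference was 2.49 ± 0.207 (SE, adjusted p = 1.88e-08). ACTA2, smooth muscle actin and the usual marker of myofibroblasts, had 1502, 1712 and 1572 CPM in Prolif_DMSO and 1128, 1199 and 1048 CPM in Prolif_RG7388. In irradiated cells it had 342, 437 and 440.4 CPM without and 756, 783 and 838 CPM with RG7388. The 2 states thus moved toward each other, with a response difference of 1.47 ± 0.177 (SE, adjusted p = 3.95e-06).

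TAGLN (transgelin), an actin-binding protein, rose 2.10-fold in irradiated cells only, with a response difference of 1.26. DES (desmin), a muscle intermediate filament, fell in proliferating cells only, from 25.5, 27.0 and 25.8 to 10.9, 13.0 and 12.2 CPM, with a response difference of 1.43. The TGF-beta response genes, by contrast, were lower for 6 of 13 (46.2%, against 5.27% of all genes) and higher for 1 (7.69%, against 2.2%). The lower ones included the SMAD targets ID1 (-1.36) and ID3 (-1.30) and the inhibitory SMAD7 (-0.94), all of which fell in irradiated cells only.

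Collagen and matrix genes were higher for 7 of 43 (16.3%, against 2.2% of all genes) and lower for 2 (4.65%, against 5.27%), with a median of 0.12. The higher count was 3 to 4 whichever library was left out, 4 with library totals alone and 13 without both libraries that stood apart. All 7 were elastic fiber, cross-linking or proteoglycan and glycoprotein genes. THBS1 (thrombospondin) was at 2469.7, 2522 and 2801 CPM in Prolif_DMSO, 2667, 2693 and 2746 CPM in Prolif_RG7388, 1118, 1264 and 1367 CPM in IR_DMSO and 2155, 2147 and 2024 CPM in IR_RG7388. It rose in irradiated cells without reaching proliferating levels, and the response difference was 0.70 ± 0.134 (SE, adjusted p = 0.00122). DCN (decorin) was 0.60 and BGN (biglycan) 0.75, of which DCN was lost in all 3 FPKM fits (adjusted p from 0.432 to 0.696). LOX, the collagen cross-linking oxidase, was 0.68, a call lost in the FPKM fits too and in 4 of the 12 fits without 1 library (adjusted p up to 0.0831).

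The lower genes were COL7A1 (-1.38), the anchoring fibril collagen, and COL16A1 (-0.76). COL1A1, the main fibrillar collagen, had 9178, 5241 and 5544 CPM in IR_DMSO and 9622, 9071 and 8174 CPM in IR_RG7388. IR_DMSO replicate 1 overlapped the treated group, the response difference was 0.18 ± 0.237 (SE, adjusted p = 0.755), and without both libraries that stood apart it passed (adjusted p = 0.00524).

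**Figure D5:**
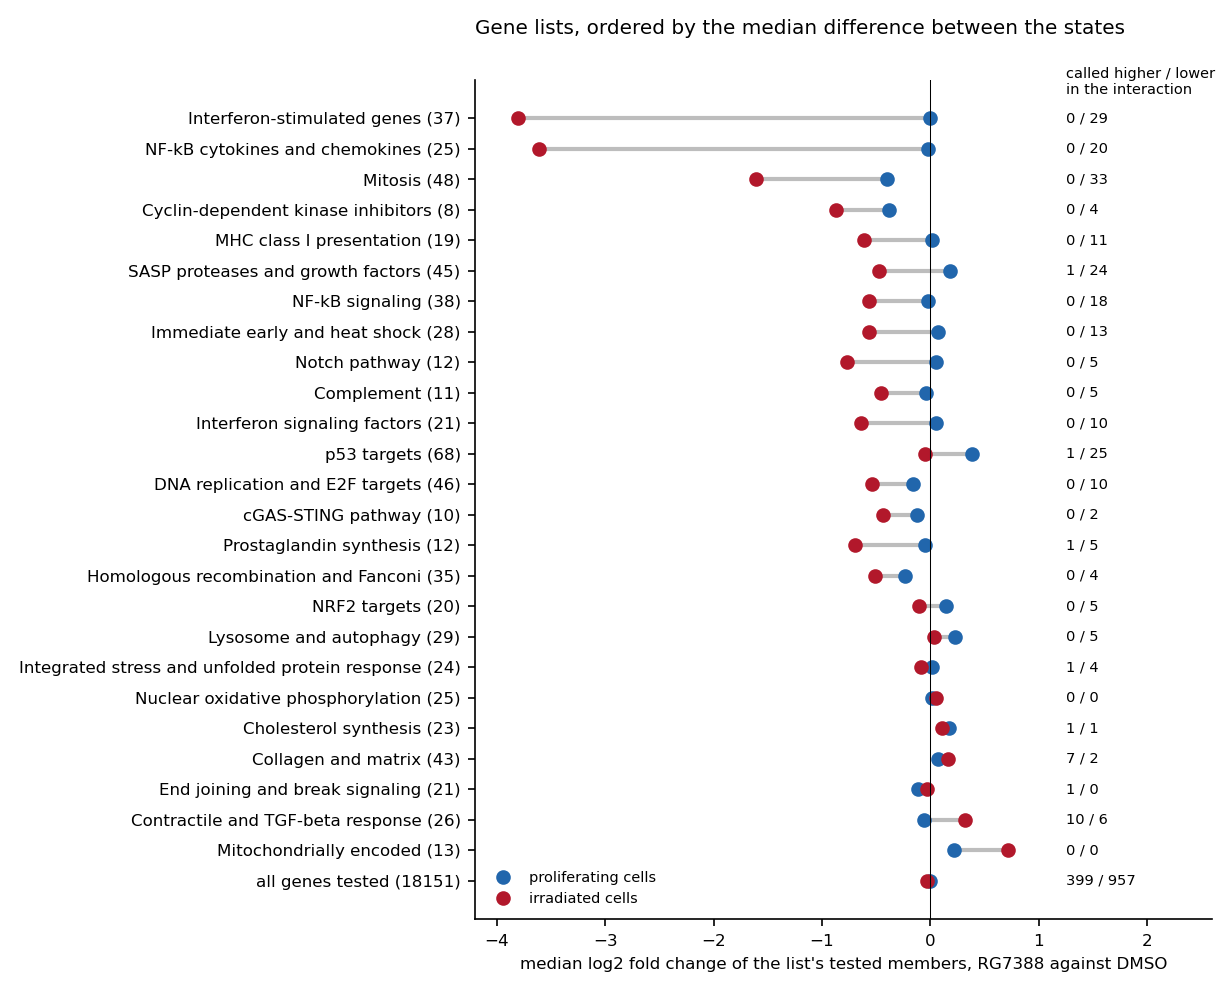
Median response to RG7388 (log2 fold change) of each gene list in proliferating cells and in irradiated cells, joined by a line, with the number of members tested. NF-kB cytokines and interferon-stimulated genes have the longest lines, and p53 targets lie above 0 in proliferating cells and near 0 in irradiated cells. Contractile and TGF-beta response genes, drawn as 1 list of 26, run the other way.

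Stress and clearance pathways were touched in part. Of 20 NRF2 targets, which detoxify oxidants, 5 were lower (25%, against 5.27% of all genes) and none higher. HMOX1, heme oxygenase, was at 12.7, 13.7 and 12.1 CPM in Prolif_DMSO, 18.6, 20.9 and 16.5 CPM in Prolif_RG7388, 16.4, 20.9 and 19.2 CPM in IR_DMSO and 7.38, 6.37 and 6.79 CPM in IR_RG7388. Treated irradiated libraries were the lowest, the rise in proliferating cells missed the threshold (adjusted p = 0.0693), and the response difference was -1.99 ± 0.210 (SE, adjusted p = 6.09e-07). AKR1C1 was -2.54 and NQO1 -1.50, both reductases, and the ferritin chain FTH1 -0.96.

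Immediate early and heat shock genes were lower for 13 of 28 (46.4%, against 5.27% of all genes). ATF3 was -2.45, IER3 -2.47 and the nuclear receptor NR4A2 -2.58, and each fell in irradiated cells only. Integrated stress and unfolded protein response genes gave 4 lower (16.7%, against 5.27% of all genes) and 1 higher (4.17%, against 2.2%) of 24, with DDIT3 (CHOP) at -0.94 and the serine synthesis gene PSAT1 at 0.70. Of 29 lysosome and autophagy genes 5 were lower (17.2%, against 5.27% of all genes), among them the cholesterol exporter NPC1 (-1.73) and the autophagy receptor SQSTM1 (-1.12). GABARAPL1, an autophagosome gene, rose in proliferating cells (0.44) and fell in irradiated cells (-0.39).

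Notch pathway genes were lower for 5 of 12 (41.7%, against 5.27% of all genes). The ligands DLL4 (-1.85) and JAG1 (-0.70) and the target HES1 (-1.87) were among them, and the target HEY1 (-2.06) was lost in the FPKM fits. Metabolic lists were near the background. None of 25 oxidative phosphorylation genes and none of 13 mitochondrially encoded genes was called (against 7.47% of all genes). Of 23 cholesterol synthesis genes 1 was lower (INSIG1, -1.31), a share of 4.35% against 5.27% of all genes. In that list 1 was higher (4.35%, against 2.2%). The 13 mitochondrially encoded transcripts had a median response difference of 0.48 with wide errors.

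Several genes outside these lists also moved in opposite directions. TFPI2, a protease inhibitor of the matrix, was at 42.6, 46.5 and 46.6 CPM in Prolif_DMSO, 64.1, 67.9 and 61.9 CPM in Prolif_RG7388, 366, 412 and 393 CPM in IR_DMSO and 75.2, 70.9 and 72.2 CPM in IR_RG7388. Both treated groups ended close to each other while the controls were far apart, and the response difference was -2.94 ± 0.136 (SE, adjusted p = 1.46e-12). VWA5A was -2.98, the mesenchymal transcription factor TCF21 -2.08 and TRANK1 -1.89, each up in proliferating and down in irradiated cells. HHIP, an inhibitor of hedgehog ligands, was the 1 gene besides MYH11 and ACTA2 to fall in proliferating (-0.60) and rise in irradiated cells (0.82), at 1.43 ± 0.219 (SE, adjusted p = 9.71e-05). That call was lost in the FPKM fits (adjusted p from 0.0933 to 0.234).

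Genes outside the lists with a higher response in irradiated cells were led, by p, by genes that began lower in IR_DMSO than in Prolif_DMSO. Both groups are terms of the response difference, so a low IR_DMSO level itself favors such a call. ANO1, a calcium-activated chloride channel, was at 79.1, 80.4 and 78.2 CPM in Prolif_DMSO and 64.2, 61.9 and 66.6 CPM in Prolif_RG7388. It was at 17.1, 22.2 and 24.5 CPM in IR_DMSO and 68.5, 68.8 and 67.3 CPM in IR_RG7388, within the range spanned by the treated and untreated proliferating libraries, and the response difference was 1.98 ± 0.162 (SE, adjusted p = 1.46e-08). The synaptic adhesion gene NRXN3 was 2.03, the potassium channel KCNQ5 2.11 and the semaphorin SEMA7A 1.48. MAP3K7CL was the exception in starting level and went from 28.4, 30.5 and 32.4 CPM in IR_DMSO to 101, 102 and 106 CPM in IR_RG7388, with 31.2 and 37.8 CPM on average in proliferating cells. WNT5B (1.22), the protease CORIN (1.32) and the phosphatase PTPRB (1.48) rose 3.00-fold, 3.16-fold and 3.16-fold in irradiated cells only. The keratin gene KRT18, at 1.19, was the most abundant of the epithelial markers, and its part in other results was not tested.

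Genes called in both states in 1 direction but not for the response difference numbered 119, of which 92 rose and 27 fell. C7, a complement component, was 1 of those that rose: its levels were 2.76, 2.37 and 1.94 CPM in Prolif_DMSO, 7.30, 9.26 and 8.52 CPM in Prolif_RG7388, 19.4, 18.6 and 16.0 CPM in IR_DMSO and 50.7, 54.3 and 54.8 CPM in IR_RG7388. It rose 3.50-fold in proliferating and 2.96-fold in irradiated cells from different starting levels, with a response difference of -0.24 ± 0.181 (SE, adjusted p = 0.522) and a 95% interval of -0.62 to 0.13. SEMA6A, an axon guidance gene, rose 2.18-fold and 2.21-fold (interval -0.50 to 0.54). The recombination gene BRCA2 fell in both states (-1.09 and -1.53) and so did the early growth response gene EGR2 (-1.41 and -1.01), with intervals of -1.21 to 0.33 and -0.22 to 1.02. These intervals are wide, and a missed threshold does not show equal responses.

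A second MDM2 inhibitor, HDM201, was given to both states in 6 further libraries, at another nanomolar concentration per the study's methods, and compared with the DMSO libraries already used, so its values are not independent of those for RG7388 and are only set beside them. Replicate 3 of Prolif_HDM201 stood apart, with the lowest mean correlation to its own group of the 18 libraries (0.977). All HDM201 values include it, and values without it are not given. With HDM201, 1568 genes (8.64%) had a response difference, 539 higher (2.97%) and 1029 lower (5.67%). Inflammatory genes had values of -5.24 for CXCL8 (RG7388 -5.58), -4.27 for IL6 (-4.41) and -3.12 for OAS3 (-3.69). Among p53 targets, CDKN1A was -1.48 (-1.48), GDF15 -3.11 (-3.25), TNFRSF10D 0.92 (1.10) and MDM2 -0.55 (adjusted p = 0.195, RG7388 -0.82).

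Of the cell cycle genes, CDC20 was -0.95 (RG7388 -1.78), BUB1 -0.73 (-1.68), LMNB1 -0.18 (adjusted p = 0.676, RG7388 -1.06) and EXO1 -0.06 (adjusted p = 0.903, RG7388 -0.80). The EXO1 call for RG7388 was lost in the limma fits to log2 FPKM (adjusted p from 0.206 to 0.696). The difference between the compounds was not tested. MYH11 was 1.99 with HDM201 (2.49 with RG7388) and ACTA2 1.40 (1.47).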

How the data were processed

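Poly(A) RNA-seq libraries were grouped by their sample labels. Per the labels' processing notes and the study's methods, the authors aligned reads to hg38 with STAR, counted reads per gene with HTSeq and computed FPKM with Cufflinks. The sources used here give no versions, annotation release or strand setting. The main values are the deposited raw counts. The deposited FPKM values, normalized by the authors, served only for alternatives on log2(FPKM + 1) and log2(FPKM + 0.1). A blank FPKM was read as 0, except that 1896 genes with a blank beside at least 10 reads, COL1A1 among them, were left out of those fits.

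Of 60668 rows, 45 duplicate pseudoautosomal entries were left out, and edgeR's filterByExpr kept 18151 genes. Counts were scaled by TMM and fitted in edgeR 4.0.16 (R 4.3.3) by the robust quasi-likelihood F test with 1 mean per group over all 18 libraries (12 residual degrees of freedom), so that all 6 groups share 1 estimate of spread. Adjusted p-values are Benjamini-Hochberg over all genes tested, with a threshold of 0.05. CPM are counts divided by the TMM-scaled library size and not by length, so levels are not compared between genes. DESeq2 1.42.0 and limma 3.58.1 were alternatives, as were other scalings and filters, a replicate block and leaving out each library. Scripts were tested on simulated counts.

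The study design, gene lists (29, with 701 of 740 members tested), alternatives and named genes were chosen with earlier results of these data known, so lists are described by counts and medians and not tested as sets. Named genes were a panel, the top 10 by size and by p in each direction, those of opposite direction, those alike in both states, and up to 4 members per list and role by p. A few of these genes are not reported here. Gene positions are from GENCODE 44 (hg38). Promoter windows, 250 bases before to 50 after the start, were found for 11692 genes tested.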

Additional observations from a re-analysis of the deposited data

Results flagged for a closer look

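The response to RG7388 differed between irradiated and proliferating cells for 1356 genes by the test of the difference itself, and the genes below were those named that moved in opposite directions in the 2 states, each called in both. Lower in irradiated cells were GDF15 (-3.25), VWA5A (-2.98), TFPI2 (-2.94), TCF21 (-2.08), BTG2 (-1.98), TRANK1 (-1.89), PLAU (-1.42), DRAM1 (-1.20), TP53INP1 (-0.91) and GABARAPL1 (-0.83), given as response differences on the log2 scale. Higher in irradiated cells were HHIP (1.43), ACTA2 (1.47) and MYH11 (2.49). No group had the 4 samples that a check for outlying libraries needs, and no data outside the comparison were read as a signal.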

How the results depend on the processing

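Against 1356 response differences (399 higher, 957 lower), 4134 calls in irradiated and 279 in proliferating cells, leaving out 1 library at a time gave 991 to 1268, 239 to 351 higher, 735 to 926 lower, 2894 to 4057 and 94 to 401. The 12 libraries alone gave 2098 response differences (779 higher) and 829 calls in proliferating cells. Leaving out both libraries that stood apart, an alternative chosen after seeing the data, gave 2204 (841 higher) and 1436 in proliferating cells, with 71.2% of the lower and 81.2% of the higher genes called in irradiated cells only (86.5% and 92.7% with all libraries). Library totals alone gave 1502 lower. DESeq2's Wald test gave 557 in proliferating cells. The limma fits gave 171 higher and 160 in proliferating cells for log2(FPKM + 1), 169 and 162 for log2(FPKM + 0.1), and 125 and 73 for log2(FPKM + 1) with no filter. At an adjusted p of 0.01 there were 775 (182 higher, 593 lower), 2468 and 94, and at 2-fold 709 (105 higher, 604 lower), 1222 and 52. The cause of these shifts was not tested, apart from the stricter thresholds and fewer libraries by construction. No named gene that was called turned its direction under any alternative, and 3 that were not called (C7, SEMA6A and CENPE) did under at least 1. Of 141 named genes called, 126 kept the call without each library in turn. The replicate block gave 1319 response differences and 237 calls in proliferating cells. The replicate numbers gave no pairing that held over the 4 groups. Of 18 same-number pairs, 3 had a correlation over 0.1 (range -0.1132 to 0.2687), and 6 of 12 libraries correlated best with their own number. Those 3 pairs were all between the control groups Prolif_DMSO and IR_DMSO (0.2687, 0.1056 and 0.1412). Low counts limit the response difference of genes nearly silent in proliferating cells: 152 of the lower genes were under 1 CPM in Prolif_DMSO.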
